A study of Mus musculus with 2 samples.

Results

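Ifitm1, Ifitm2 and Ifitm3 were described in CD8 T cells taken from tumours of MC38, a colon carcinoma line of the mouse. They are 3 of the 32285 genes in the count tables, and all 3 symbols were found once in each library. The genes were chosen by name with their values in these libraries already known, so the differences between the libraries, between cell states and between cells are given as descriptions, with no test. The cells were those with at least 500 detected genes, a mitochondrial share of UMIs (unique molecular identifiers, the counted RNA molecules) under 10%, and at least 1 UMI of Cd3d, Cd3e or Cd3g and of Cd8a or Cd8b1. This gate kept 8164 of the 10111 barcodes of the NK-depleted library and 6901 of the 7866 barcodes of the control library.

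There are 2 libraries of single-cell RNA, each from live CD8+ cells sorted by flow cytometry from tumours taken 9 days after implantation. The NK-depleted library came from WT mice given the a-NK1.1 antibody, which removes natural killer (NK) cells and any other cell that carries NK1.1. The control library came from WT mice whose treatment label is PBS, while the name of that library carries the abbreviation Iso. With 1 library in each group and no number of mice given in the sources used here, no spread between animals could be measured, and the library and the treatment cannot be told apart. All intervals below are 95% intervals that cover counting error only.

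Ifitm genes code for small interferon-induced membrane proteins. IFITM3 sits mainly in endosomes and lysosomes and hinders the fusion of enveloped viruses with the membrane, while IFITM1 is found more at the cell surface. IFITM2 is closely related to IFITM3. The genes are induced by type I interferon and by interferon gamma in many cell types, and in mice Ifitm3 is known to be kept on in lung-resident memory CD8 T cells, where it protects them from infection. For this reason their levels were set beside Ifit3, a cytoplasmic antiviral protein that is a standard readout of the type I interferon response, and beside Gzmb, the granzyme that cytotoxic T cells deliver into target cells.

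The 3 genes lie together on mouse chromosome 7 (GRCm38, GENCODE M21), within 55.9 kilobases. Ifitm2 (ENSMUSG00000060591) spans 140954837 to 140955987 on the minus strand. Ifitm1 (ENSMUSG00000025491) spans 140967221 to 140969825 on the plus strand. Ifitm3 (ENSMUSG00000025492) spans 141009586 to 141010770 on the minus strand. Their promoters, from the RefSeq table for GRCm38.p6, in which all 3 were matched, are shown because the 3 genes moved together between the libraries and are known interferon targets. Each runs 5′ to 3′ on the strand of its gene from 250 bases before to 30 bases after the RefSeq start. The RefSeq starts differ from the ends of the GENCODE spans above, so distances below hold for the RefSeq starts only. The Ifitm1 window lies wholly inside the GENCODE span of Ifitm1, and the sequence before its GENCODE start was not searched. The windows are chr7:140967826-140968105 (plus strand) for Ifitm1, chr7:140955932-140956211 (minus strand) for Ifitm2 and chr7:141010715-141010994 (minus strand) for Ifitm3. Capitals mark matches to either of the motifs named after the sequences.
Ifitm1: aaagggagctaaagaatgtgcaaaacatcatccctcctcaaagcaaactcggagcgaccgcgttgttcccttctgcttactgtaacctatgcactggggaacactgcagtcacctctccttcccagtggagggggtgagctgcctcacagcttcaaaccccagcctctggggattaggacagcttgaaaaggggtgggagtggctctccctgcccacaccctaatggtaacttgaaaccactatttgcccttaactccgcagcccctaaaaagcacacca
Ifitm2: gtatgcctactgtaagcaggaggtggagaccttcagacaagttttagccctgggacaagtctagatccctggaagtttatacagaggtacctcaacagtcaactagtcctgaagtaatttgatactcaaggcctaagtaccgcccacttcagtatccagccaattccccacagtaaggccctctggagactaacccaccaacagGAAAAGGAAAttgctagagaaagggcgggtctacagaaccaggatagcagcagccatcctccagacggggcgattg
Ifitm3: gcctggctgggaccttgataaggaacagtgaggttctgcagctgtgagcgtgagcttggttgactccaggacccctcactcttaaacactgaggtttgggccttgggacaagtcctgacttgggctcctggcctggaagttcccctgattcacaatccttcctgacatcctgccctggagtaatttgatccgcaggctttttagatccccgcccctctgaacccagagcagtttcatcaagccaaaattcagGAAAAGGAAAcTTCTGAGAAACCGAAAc
The loose interferon-stimulated response element GAAANNGAAA, searched on both strands, is in 1068 of 32541 different promoter windows of this length (3.28%). The gamma-activated site TTCNNNGAA is in 2558 of them (7.86%). The Ifitm3 window holds 2 matches of the response element, GAAAAGGAAA and GAAACCGAAA, which start 2 and 19 bases after the RefSeq start. It also holds 1 match of the gamma-activated site, TTCTGAGAA, which overlaps the second of them. The Ifitm2 window holds 1 match of the response element, GAAAAGGAAA, which starts 46 bases before the RefSeq start. The Ifitm1 window holds neither motif, which says only that these letters are not in this window. For comparison, the Ifit3 window holds 2 matches of the response element.

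All 3 genes were higher in the NK-depleted library. Ifitm2 differed most, with 561 CPM in NK-depleted cells against 184 CPM in control cells, a ratio of 3.06 (interval 3.01 to 3.11). CPM stands for counts per 1000000 UMIs, with both the UMIs of the gene and the total summed over the gated cells of a library. Ifitm1 had 934 CPM in NK-depleted cells and 477 CPM in control cells, a ratio of 1.96 (interval 1.94 to 1.98). Ifitm3 had 513 CPM in NK-depleted cells and 283 CPM in control cells, a ratio of 1.81 (interval 1.79 to 1.84). The counts behind these levels were large: 117005 and 50733 UMIs of Ifitm1, 70309 and 19537 of Ifitm2, and 64262 and 30101 of Ifitm3, NK-depleted before control, out of 125332343 and 106462391 UMIs.

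Few genes differed as much in that direction. Of 3023 genes with at least 50 CPM in either library, 19 (0.629%) had a ratio of NK-depleted over control of 1.5 or more, and 74 (2.45%) were lower by as much. The 3 Ifitm genes were among the 19, but they were chosen with this known, so nothing is read from it. Ranked by ratio, Ifitm2 was at place 3, Ifitm1 at place 8 and Ifitm3 at place 11, and places 1 and 2 were held by the granzymes Gzmc and Gzmf. The counts of genes depended on the scaling: the higher genes made up 20.4% of those past 1.5-fold by CPM, 44.4% with TMM factors (36 higher, 45 lower) and 48.2% with median-of-ratios factors (41 higher, 44 lower). The Ifitm genes were higher under every scaling tried.

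Of the rest of the family only Ifitm10 reached 10 CPM. It had 17.0 CPM in NK-depleted cells and 17.9 CPM in control cells, with a UMI in 9.40% and 10.1% of cells thinned to 5500 UMIs, a step described below. Ifitm5, the bone-restricted member, had 103 UMIs in NK-depleted cells and 19 in control cells. Ifitm6 had 67 UMIs in NK-depleted cells and 41 in control cells, and Ifitm7 had 1 UMI in NK-depleted cells and 0 in control cells. The 15 nearest coding genes around the 3 were also checked. Of these, 7 reached 10 CPM, and their log2 ratios (NK-depleted over control) ran between 0.01 and 0.33 with a median of 0.11. Sirt3, a mitochondrial deacetylase, was highest at 18.5 CPM in NK-depleted cells against 14.7 CPM in control cells, and Sigirr was lowest at 33.3 CPM against 32.9 CPM. The difference between the libraries was thus smaller for each neighbour of 10 CPM or more than for any of the 3 Ifitm genes.

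Because the genes are paralogs, reads from a shared stretch could be given to a wrong member. Over the longest annotated coding sequences, Ifitm2 and Ifitm3 are 75.8% identical, with a longest identical run of 69 bases. Ifitm1 is 60.2% identical to Ifitm2 and 63.5% identical to Ifitm3, with longest runs of 40 and 64 bases. No source used here says how the authors' counting treated such reads, so their effect on the level of each member is not known.

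Depth did not differ much between the libraries: the median cell had 12289.5 UMIs in the NK-depleted library and 11444 UMIs in the control library. To compare single cells at the same depth, each was thinned at random to 5500 UMIs, which left 7384 NK-depleted and 6246 control cells and dropped 780 and 655 shallower ones. Ifitm1 was then detected in 48.0% of NK-depleted cells (46.8 to 49.1) and 25.5% of control cells (24.4 to 26.6). Without thinning, the shares were 63.6% in NK-depleted cells and 31.2% in control cells. Ifitm2 was detected in 57.1% of NK-depleted cells (56.0 to 58.3) and 25.5% of control cells (24.5 to 26.6), against 67.0% and 33.5% without thinning. Ifitm3 was detected in 53.9% of NK-depleted cells (52.8 to 55.1) and 37.8% of control cells (36.6 to 39.1), against 64.2% and 47.5% without thinning. For each gene the intervals of the libraries lay apart.

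**Figure D1:**
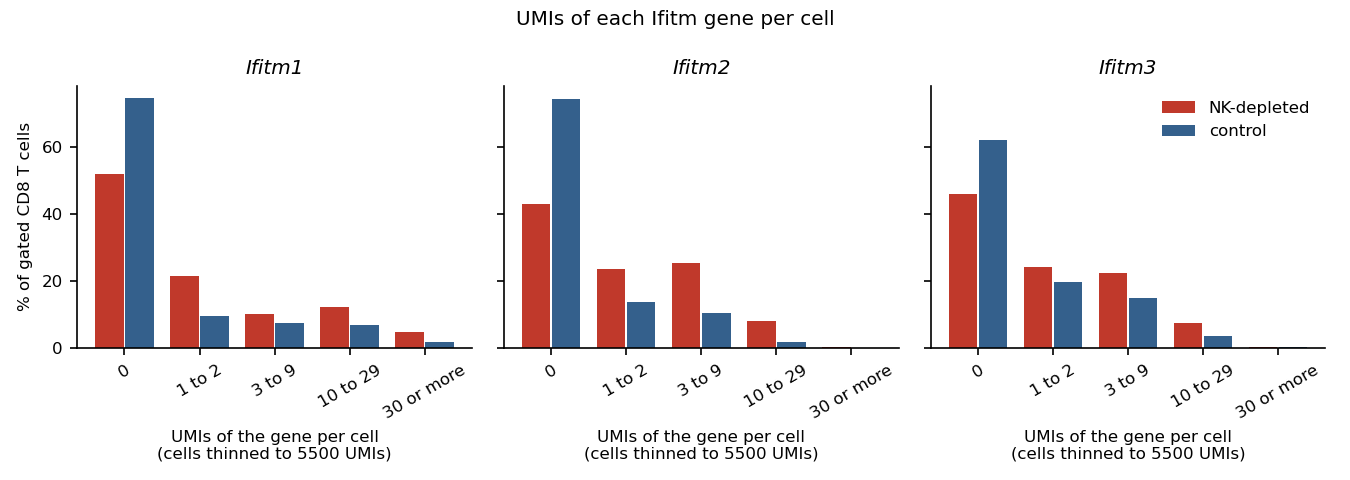
Share of gated CD8 T cells (vertical axis, %) by the number of UMIs of Ifitm1, Ifitm2 and Ifitm3 in the cell (horizontal axis, cells thinned to 5500 UMIs), for the NK-depleted (red) and control (blue) libraries, 1 library each. Cells with 0 UMIs of Ifitm2 make up 42.9% of NK-depleted cells and 74.5% of control cells, and every class above 0 is larger in the NK-depleted library for each gene.

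The genes were spread unevenly over cells. Ifitm1 was the most uneven: cells with 0 UMIs made up 52.0% of NK-depleted cells and 74.5% of control cells, while 4.67% of NK-depleted cells and 1.63% of control cells held 30 or more after thinning. The 10% of cells richest in Ifitm1 carried 69.1% of its UMIs in the NK-depleted library and 85.6% in the control library, counted before thinning. For Ifitm2 those 10% carried 51.6% in the NK-depleted library and 72.2% in the control library, and for Ifitm3 55.8% and 64.2%. A low count in many cells and a high count in a few therefore stood side by side.

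Detection and level per positive cell can be separated. Among thinned cells with at least 1 UMI of Ifitm1, the mean was 10.4 UMIs in NK-depleted cells and 9.40 UMIs in control cells, and the median was 4 in both libraries. The libraries thus differed more in the share of cells with at least 1 UMI of Ifitm1 than in the mean of those cells. That share differed by 22.5 points between the libraries, and by 13.4 points when at least 2 UMIs were asked for. Cells with 1 to 2 UMIs of Ifitm1, which lower the mean of positive cells, made up 21.3% of NK-depleted and 9.61% of control cells. Cells rich in Ifitm1 were also more common, with 30 or more UMIs in 4.67% of NK-depleted and 1.63% of control cells. The part of free RNA, described below, in cells with few UMIs was not tested. For Ifitm2, positive cells held a mean of 5.03 UMIs in the NK-depleted library and 3.55 UMIs in the control library, with medians of 3 and 2. For Ifitm3 the means were 4.78 UMIs in NK-depleted cells and 3.96 UMIs in control cells, with medians of 3 and 2. Cells with 10 or more UMIs made up 16.7% of NK-depleted and 8.42% of control cells for Ifitm1, 8.29% and 1.68% for Ifitm2, and 7.49% and 3.51% for Ifitm3.

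The 3 genes were found together more often in the NK-depleted library. All 3 were detected in 26.2% of NK-depleted cells (25.2 to 27.2) and 10.1% of control cells (9.38 to 10.9). None was detected in 20.3% of NK-depleted cells (19.4 to 21.2) and 45.9% of control cells (44.7 to 47.1). Cells with Ifitm3 alone made up 9.60% of NK-depleted cells and 18.3% of control cells, whereas cells with Ifitm2 alone made up 9.44% of NK-depleted cells and 5.03% of control cells. Cells with Ifitm1 alone made up 7.58% of NK-depleted and 6.05% of control cells. Ifitm3 without the other members was therefore the commonest single-gene pattern of the control library. In the NK-depleted library it was about as common as Ifitm2 alone.

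Droplet libraries also hold free RNA, which gives low counts in cells that do not make a transcript. No cell type here is known to lack all 3 genes, so the group of cells with the lowest levels, a cluster like naive or central memory T cells described below, was used as a guide to the background. At a median of 8995.5 UMIs per cell in NK-depleted cells and 10179.5 UMIs in control cells, it held Ifitm1 in 23.0% of thinned NK-depleted cells and 8.85% of control cells. Ifitm2 was in 22.7% of its NK-depleted cells and 2.34% of its control cells, and Ifitm3 in 16.6% and 3.13%. In that cluster the level was 6.25%, 8.19% and 6.95% of the level of the NK-depleted library for Ifitm1, Ifitm2 and Ifitm3, and 2.75%, 2.75% and 3.33% of the level of the control library. These shares were close to each other in control cells, while in NK-depleted cells that of Ifitm2 was higher than that of Ifitm1. Gzmb stood at 13.0% of its library level in the NK-depleted and 8.36% in the control naive-like cells, and Ifit3 at 57.4% and 36.8%. The part of free RNA in these low counts was not tested.

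Summed over the gated cells of each library, the interferon response went the other way. Ifit3 had 246 CPM in NK-depleted cells and 495 CPM in control cells, a ratio of 0.497 (interval 0.490 to 0.504), and was detected in 49.6% of thinned NK-depleted cells and 67.4% of thinned control cells. Across 7624 genes with at least 10 CPM in either library, 478 (6.27%) were higher in NK-depleted cells by 1.25-fold or more and 908 (11.9%) lower by as much, and the median log2 ratio was -0.06. Of 28 genes with that level in a list of type I interferon response genes, 23 were lower by 1.25-fold or more, none was higher by as much, and their median log2 ratio was -0.50. The largest differences were in Ifit3b (-1.30), the growth regulator Slfn5 (-1.07), Ifit3 (-1.01), and in Ifit1bl1, with 91.4 CPM in NK-depleted cells and 183 CPM in control cells. Ly6e, at 985 CPM in NK-depleted cells and 827 CPM in control cells, had the highest log2 ratio of that list (0.25). All 3 Ifitm genes lay above every gene of it.

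Genes of the interferon gamma response showed the same direction. Of 21 with at least 10 CPM, 13 were lower by 1.25-fold or more and 0 higher, around a median log2 ratio of -0.39. Iigp1, a GTPase that attacks the vacuoles of intracellular parasites, had the largest difference (-1.39), with 43.9 CPM in NK-depleted cells and 115 CPM in control cells. The guanylate-binding proteins Gbp2 (-0.73) and Gbp5 (-0.71) and the checkpoint ligand Cd274 (-0.67) followed. With TMM factors 20 type I genes, and with median-of-ratios factors 19, were lower by 1.25-fold or more, and 1, Ly6e, was higher by as much under each. Of the interferon gamma genes 9 were lower by as much under each of these scalings. The share of all genes lower by as much was counted by CPM only, here and for the lists below.

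Receptors and signalling genes upstream of the Ifitm genes depended on the scaling. Of 9 with at least 10 CPM, 5 were lower by 1.25-fold or more and 0 higher by CPM (median log2 ratio -0.33), and 2 were lower with either TMM or median-of-ratios factors. The kinase Jak2 stood at -0.69, with 42.5 CPM in NK-depleted cells and 68.7 CPM in control cells. The transcription factor subunits Stat2 and Irf9 stood at -0.55 and -0.34, and the type I receptor chain Ifnar1 at -0.36. Among proteins that bind or modify IFITM proteins, 1 of 5 was lower by 1.25-fold or more: the tetraspanin Cd9, at 12.7 CPM in NK-depleted cells and 20.8 CPM in control cells. The palmitoyltransferase Zdhhc20 (-0.18), the ubiquitin ligase Nedd4 (0.16) and the membrane contact protein Vapa (-0.14) lay between the limits.

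Granule proteins held the only other list with higher members. Of 9 with at least 10 CPM, 7 were higher by 1.25-fold or more and 1 lower, around a median log2 ratio of 1.28. Gzmf had 1542 CPM in NK-depleted cells and 372 CPM in control cells, and Gzmc had 426 CPM in NK-depleted cells and 101 CPM in control cells. Gzmd followed with 126 CPM in NK-depleted cells against 42.6 CPM in control cells, and Gzmg was at 11.4 CPM against 0.658 CPM. Gzmk was the member that was lower, with 34.2 CPM in NK-depleted cells and 87.9 CPM in control cells. Gzmb itself had 2811 CPM in NK-depleted cells and 2105 CPM in control cells, a ratio of 1.34 (interval 1.33 to 1.34).

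**Figure D2:**
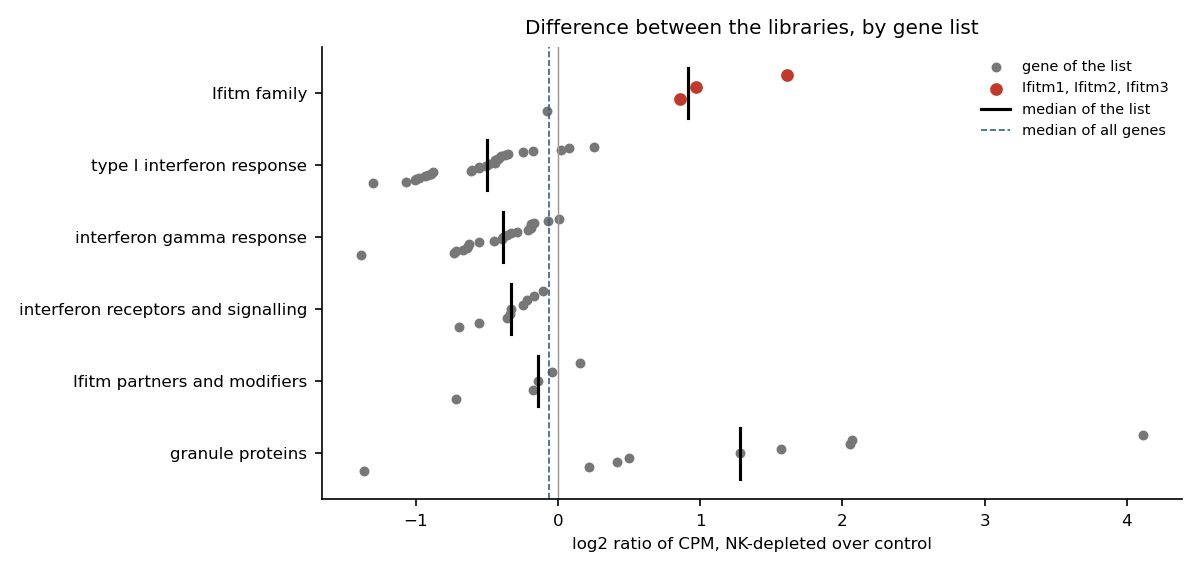
Log2 ratio of CPM, NK-depleted over control (horizontal axis), of each gene with at least 10 CPM in 6 lists (vertical axis), with the Ifitm genes in red, the median of each list as a black bar and the median of all genes (-0.06) as a dashed line. The 3 Ifitm genes lie between 0.86 and 1.61, to the right of every gene of the type I list (highest 0.25) and of the interferon gamma list (highest 0.01).

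Within each library, cells with more Ifit3 did not tend to have more Ifitm1 or Ifitm2. The Pearson coefficient between Ifitm1 and Ifit3, over log2 of thinned counts plus 1, was -0.11 across 7384 NK-depleted cells and -0.12 across 6246 control cells. Between Ifitm2 and Ifit3 it was -0.08 in NK-depleted cells and -0.12 in control cells. Ifitm3 differed from the others: its coefficient with Ifit3 was 0.01 in NK-depleted cells and 0.13 in control cells. These are weak coefficients in sparse counts from cells that share a library and a depth. On the same scale, Ifit3 and Ifit1, a fellow interferon-induced protein, reached 0.64 in NK-depleted cells and 0.72 in control cells, and Ifit3 and Isg15 reached 0.62 and 0.72.

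Binning cells by their Ifit3 count showed how the 3 genes part. Over bins of 0, 1 to 2, 3 to 5, 6 to 11 and 12 or more thinned UMIs of Ifit3, Ifitm1 stood at 1048, 823, 670, 709 and 618 CPM in NK-depleted cells and at 581, 495, 325, 265 and 253 CPM in control cells. Ifitm2 took a like course, with 548 CPM in the lowest and 444 CPM in the highest Ifit3 bin of NK-depleted cells, and 203 and 106 CPM in those bins of control cells. Ifitm3 stood at 433, 493, 506, 556 and 485 CPM in NK-depleted cells, and took the opposite course in control cells, at 193, 265, 291, 338 and 492 CPM. In the top Ifit3 bin, which held 108 NK-depleted and 391 control cells, Ifitm3 was therefore at nearly the same level in both libraries, whereas Ifitm1 and Ifitm2 were still higher in NK-depleted cells.

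Across all thinned cells, the relation of Ifitm1 and Ifitm2 to Gzmb differed between the libraries. The coefficient of Ifitm1 with Gzmb was 0.19 in NK-depleted cells and 0.03 in control cells, and that of Ifitm2 was 0.20 in NK-depleted cells and 0.05 in control cells. Ifitm3 had 0.23 in NK-depleted cells and 0.19 in control cells. Over bins of 0, 1 to 3, 4 to 9, 10 to 29 and 30 or more thinned UMIs of Gzmb, Ifitm1 stood at 432, 562, 899, 1177 and 1246 CPM in NK-depleted cells and at 264, 450, 538, 434 and 455 CPM in control cells. Ifitm2 stood at 289 CPM in the lowest and 675 CPM in the highest bin of NK-depleted cells, and at 112 and 176 CPM in those of control cells. Ifitm3 was higher bin by bin in both libraries, with 238 and 660 CPM at the ends in NK-depleted cells and 101 and 368 CPM in control cells.

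**Figure D3:**
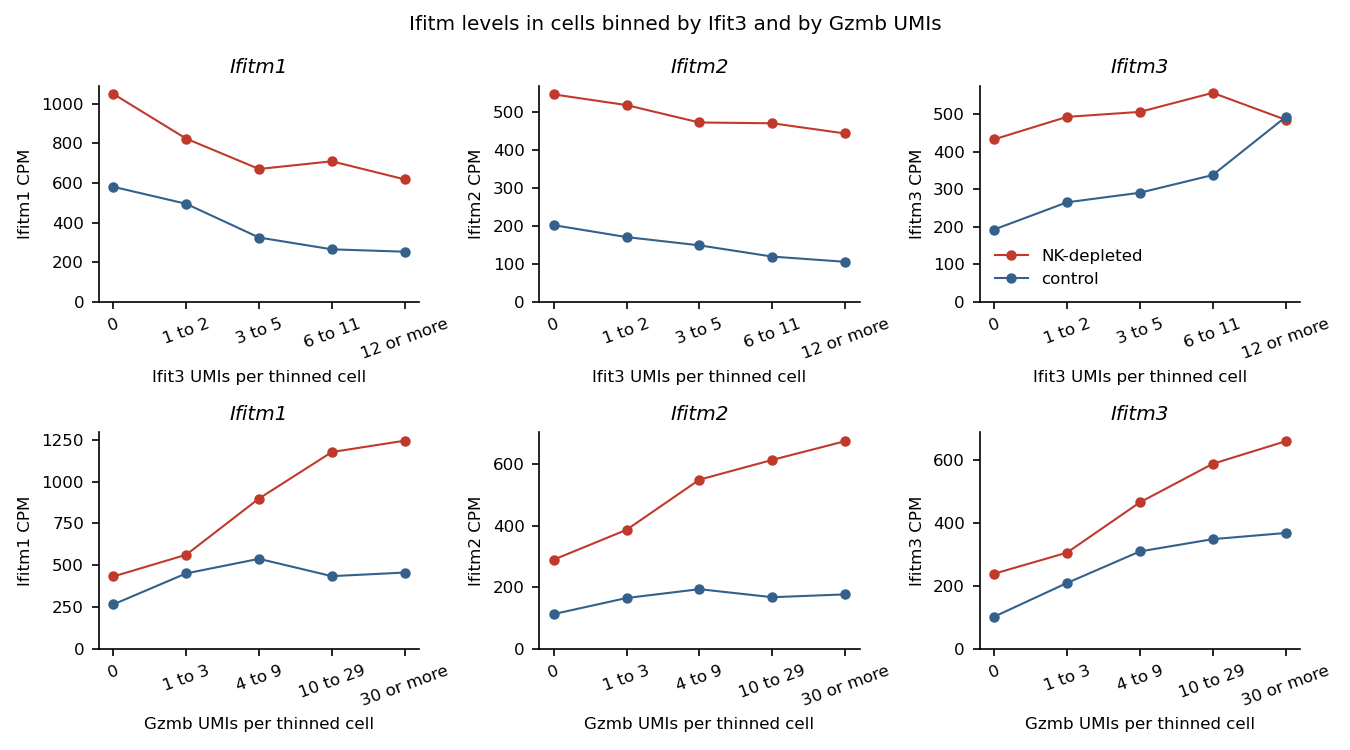
Level of Ifitm1, Ifitm2 and Ifitm3 (vertical axes, CPM of thinned cells) in cells binned by UMIs of Ifit3 (top row) or Gzmb (bottom row) after thinning to 5500 UMIs, for the NK-depleted (red) and control (blue) libraries. Ifitm1 is lower in Ifit3-rich cells of both libraries, at 618 and 253 CPM in the top bin, while Ifitm3 in control cells runs from 193 CPM in the lowest bin to 492 CPM in the highest.

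The genes whose pattern over cells was most like that of each member were the other members, out of 2546 genes compared. Ifitm1 and Ifitm2 had a coefficient of 0.49 in NK-depleted cells and 0.62 in control cells. Ifitm2 and Ifitm3 had 0.48 in NK-depleted cells and 0.36 in control cells, and Ifitm1 and Ifitm3 had 0.38 and 0.31. These values were partly kept within clusters, where the mean coefficient over 15 clusters was 0.41 in NK-depleted cells and 0.55 in control cells for Ifitm1 with Ifitm2, 0.37 and 0.33 for Ifitm2 with Ifitm3, and 0.30 and 0.28 for Ifitm1 with Ifitm3. Within clusters the mean coefficient of Ifitm1 with Ifit3 was -0.03 in NK-depleted cells and 0.00 in control cells, and that of Ifitm2 was -0.02 and -0.01. For Ifitm3 with Ifit3 it was 0.05 in NK-depleted cells and 0.07 in control cells. With Gzmb, the mean within clusters was 0.06 in NK-depleted cells and 0.03 in control cells for both Ifitm1 and Ifitm2. For Ifitm3 with Gzmb it was 0.11 and 0.10. The libraries thus differed less in the Gzmb coefficients of Ifitm1 and Ifitm2 within clusters than across all cells. The same held for the Ifit3 coefficient of Ifitm3.

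After the members, the closest gene was the same for all 3. S100a4, a calcium-binding protein of effector and memory T cells, had mean coefficients over the libraries of 0.33 with Ifitm1, 0.38 with Ifitm2 and 0.27 with Ifitm3. Lgals1, which codes for galectin-1, had 0.29, 0.34 and 0.24. The granzyme Gzmf had 0.30 with Ifitm1, the actin-capping protein Capg had 0.29 with Ifitm2, and Ly6a, the surface protein Sca-1, had 0.25 with Ifitm3. At the opposite end, the survival protein Bcl2 (-0.21) and Gimap6 (-0.20) were lowest for Ifitm1, Gimap6 (-0.22) and Tcf7 (-0.21) were among the lowest for Ifitm2, and Tcf7 (-0.22) and Emb (-0.21) were among the lowest for Ifitm3. In this order of 2546 genes Ifit3 stood at place 2523 for Ifitm1, 2509 for Ifitm2 and 249 for Ifitm3, while Gzmb stood at place 103, 80 and 12.

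Cell state was read from Pdcd1, the checkpoint receptor PD-1, Tcf7, the transcription factor of stem-like and naive T cells, and Mki67, a proliferation marker, each as at least 1 UMI after thinning. Levels were higher in cells with Pdcd1. Ifitm1 stood at 1346 CPM in NK-depleted cells with Pdcd1 and 531 CPM in those without, and at 575 CPM in control cells with Pdcd1 and 277 CPM in those without. Ifitm2 stood at 637 and 426 CPM in NK-depleted cells with and without Pdcd1, and at 198 and 126 CPM in control cells. Ifitm3 stood at 578 and 376 CPM in NK-depleted cells with and without Pdcd1, and at 294 and 248 CPM in control cells. Cells with Pdcd1 made up 45.9% of NK-depleted and 53.4% of control cells, so the library with the higher Ifitm levels had the smaller share of such cells. When Pdcd1 status was read before thinning, from deeper cells, the log2 ratio of Ifitm1 in cells with over cells without it was 2.10 in NK-depleted and 1.72 in control cells, against 1.34 and 1.05 after thinning.

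Tcf7 marked the lowest levels. Ifitm1 stood at 236 CPM in NK-depleted cells with Tcf7 and 1090 CPM in those without, a log2 ratio of -2.21, and at 201 and 497 CPM in control cells, a log2 ratio of -1.31. For Ifitm2 the log2 ratio of cells with over cells without Tcf7 was -1.84 in NK-depleted cells and -1.39 in control cells, and for Ifitm3 it was -1.57 and -1.58. In cells with Tcf7 the ratio of NK-depleted over control was 1.17 for Ifitm1, 2.41 for Ifitm2 and 1.75 for Ifitm3, against 2.19, 3.29 and 1.73 in cells without it. In CPM of thinned cells, the difference in Ifitm1 between the libraries thus lay mostly in cells without Tcf7. The difference in Ifitm3 was of like size in cells with and without it. Detection of Ifitm1 still differed in cells with Tcf7, at 31.9% in NK-depleted and 17.9% in control cells. In cluster 7, described below and richest in Tcf7, the Ifitm1 ratio was 4.46.

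Levels were somewhat higher in cells with Mki67, by less than the differences seen with Pdcd1 or Tcf7. In cells with Mki67 over cells without, the log2 ratio was 0.33 in NK-depleted cells and 0.39 in control cells for Ifitm1, 0.26 and 0.24 for Ifitm2, and 0.20 and 0.07 for Ifitm3. Ifit3 had -0.80 and -0.59. When Mki67 status was read before thinning, the log2 ratio of Ifitm1 was 0.45 in NK-depleted cells and 0.46 in control cells. That of Ifitm2 was then 0.38 in both libraries, and that of Ifitm3 was 0.34 in NK-depleted cells and 0.12 in control cells. Cells with Mki67 made up 35.3% of NK-depleted and 24.8% of control cells, and their median depth before thinning was 18724.5 and 18896 UMIs, against 11541 and 11211 UMIs in cells without it.

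Crossing the 3 markers gave 8 combinations. Ifitm2 was higher in NK-depleted cells in 8 of 8, with ratios between 1.87 and 3.59, and Ifitm3 in 8 of 8, with ratios between 1.14 and 2.19. The lowest Ifitm3 ratio had an interval of 0.863 to 1.52. Ifitm1 was higher in 6 of 8. The highest levels of Ifitm1 were in cells with Pdcd1 and neither Tcf7 nor Mki67, at 1495 CPM in NK-depleted cells and 597 CPM in control cells, and in the like cells with Mki67, at 1350 CPM and 640 CPM. Ifit3 was lower in NK-depleted cells in 8 of 8 combinations, with ratios between 0.425 and 0.713.

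Both exceptions for Ifitm1 were cells with Tcf7 and without Pdcd1. Without Mki67, Ifitm1 stood at 127 CPM in 1044 NK-depleted cells and 130 CPM in 813 control cells, a ratio of 0.979 (interval 0.877 to 1.09), although it was detected in 27.9% of those NK-depleted cells and 13.9% of those control cells. With Mki67, it stood at 195 CPM in 209 NK-depleted cells and 366 CPM in 75 control cells, a ratio of 0.532. That value rested on few cells: the 5 richest cells gave 104 of 224 UMIs in the NK-depleted library and 96 of 151 UMIs in the control library, and the share of cells with Ifitm1 was 31.6% and 29.3%.

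**Figure D4:**
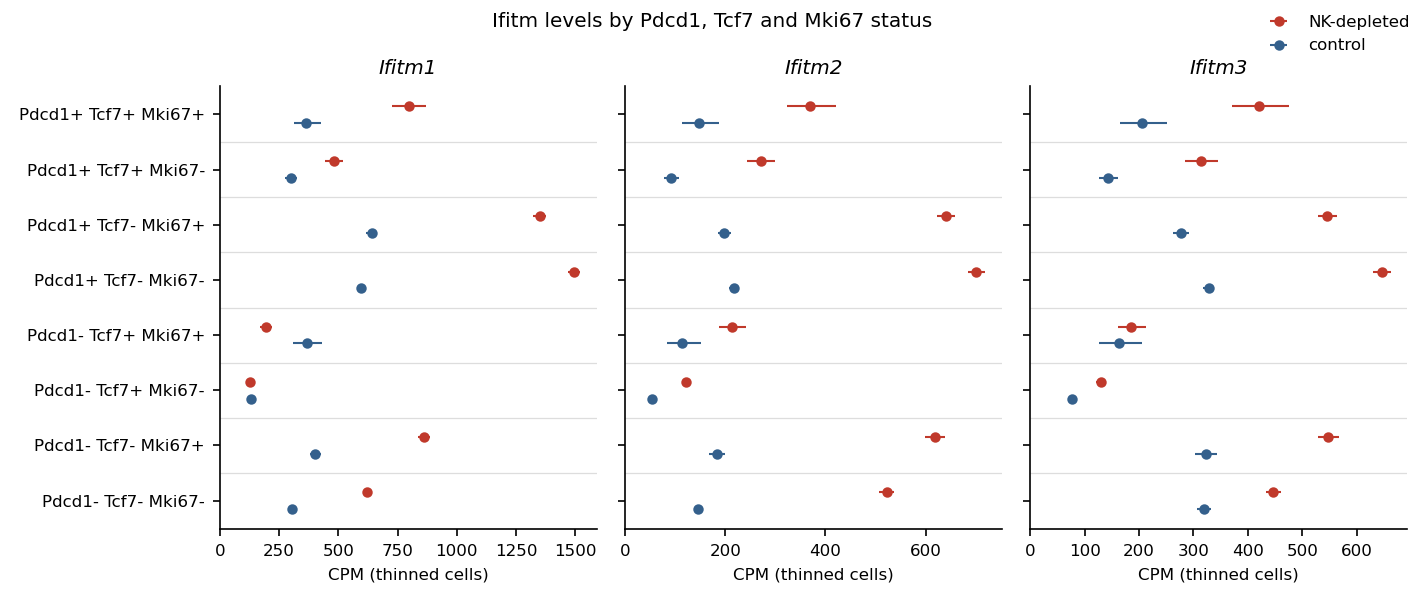
Level of Ifitm1, Ifitm2 and Ifitm3 (horizontal axes, CPM of thinned cells) in 8 combinations of Pdcd1, Tcf7 and Mki67 status (vertical axis), for the NK-depleted (red, upper point) and control (blue, lower point) libraries, with 95% Poisson intervals that cover counting error only. The highest Ifitm1 level of NK-depleted cells, 1495 CPM, is in cells with Pdcd1 and without Tcf7 or Mki67, that of control cells, 640 CPM, is in cells with Pdcd1 and Mki67 and without Tcf7, and Ifitm1 is not higher in NK-depleted cells in the pair of combinations with Tcf7 and without Pdcd1.

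The cells were also clustered without the Ifitm genes among the genes used, which gave 16 clusters over both libraries. Ifitm1 and Ifitm2 were higher in NK-depleted cells in 16 of 16, with median ratios of 2.25 and 2.68, and Ifitm3 in 15 of 16, with a median ratio of 1.51. From the highest to the lowest cluster, Ifitm1 spanned 33.1-fold in NK-depleted cells and 71.1-fold in control cells. Of the 15 pairs of neighbours in that order, 7 in NK-depleted cells and 5 in control cells had overlapping intervals, so their order is not distinguished even by counting error. The names rest on markers that the clusters were partly built from, and different names could come from another clustering.

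Cluster 0, a terminally exhausted-like cluster led by Tnfrsf4, Csf1 and Gpm6b with 4 of 10 marker genes raised, had the highest Ifitm1. It stood at 1930 CPM in 1028 NK-depleted cells and 932 CPM in 1196 control cells. Ifitm2 and Ifitm3 stood there at 711 and 713 CPM in NK-depleted cells, and at 292 and 288 CPM in control cells. Cluster 9, led by the granzymes Gzmg, Gzmd and Gzmf, followed for Ifitm1 in NK-depleted cells, with 1753 CPM in 634 NK-depleted cells against 365 CPM in 135 control cells. The control cells of cluster 9 were shallow, with a median of 3599 UMIs against 7114.5 in NK-depleted cells. Of the cycling-like clusters, cluster 10, led by Cdc20 and Ccnb2, had 1263 CPM of Ifitm1 in NK-depleted cells and 444 CPM in control cells, and cluster 1, led by histone genes, had 964 CPM and 502 CPM. Cluster 8, led by the DNA repair and replication genes Ung and Mcm3, had 975 CPM in NK-depleted cells and 665 CPM in control cells. The lowest Ifitm1 ratio, 1.26, was in cluster 6, led by Ifi211 and Ifi204, with 760 CPM in NK-depleted cells and 602 CPM in control cells.

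Cluster 3, an interferon responsive-like cluster led by Trim30c, Iigp1 and Slfn5, set the members apart. Its Ifit3 level was 1633 CPM in 179 NK-depleted cells and 1749 CPM in 1128 control cells. These levels were closer to each other than the 246 and 495 CPM over all gated cells. The cluster made up 2.19% of NK-depleted and 16.3% of control cells. The part of this difference in share in the lower Ifit3 of the NK-depleted library was not tested. There Ifitm3 stood at 532 CPM in NK-depleted cells and 440 CPM in control cells, a ratio of 1.21. Ifitm1 stood at 644 CPM in NK-depleted cells and 153 CPM in control cells, a ratio of 4.20, and Ifitm2 at 422 CPM and 92.9 CPM, a ratio of 4.54. Among control cells cluster 3 was thus at place 3 of 16 for Ifitm3 but at place 13 for both Ifitm1 and Ifitm2.

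Some clusters belonged mostly to 1 library. Cluster 2, led by Upp1, Klra5 and Lilrb4a, held 1725 NK-depleted and 143 control cells, with Ifitm2 at 723 CPM in NK-depleted cells and 294 CPM in control cells. Cluster 5, led by Actn2, Fam234b and Gzmk, held 110 NK-depleted and 1048 control cells, with Ifitm2 at 703 CPM and 113 CPM, a ratio of 6.24, and Ifitm1 at 644 CPM and 183 CPM. Without both of these clusters the log2 ratio of Ifitm2 over all other cells was 1.49, against 1.61 with them. A mean weighted to the same mix of the 8 status combinations in both libraries gave log2 ratios of 1.11 for Ifitm1, 1.70 for Ifitm2 and 0.82 for Ifitm3. Neither setting gives both libraries the same mix of all clusters, so the part of cell composition in the difference was not measured as a whole.

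The lowest levels of all 3 genes in both libraries were in cluster 7, a naive or central memory-like cluster led by Il6ra and Klf2 with 8 of 9 marker genes raised. Ifitm1 stood there at 58.4 CPM in 640 NK-depleted cells and 13.1 CPM in 404 control cells. Ifitm2 stood at 45.9 CPM in NK-depleted cells and 5.05 CPM in control cells, and Ifitm3 at 35.6 CPM and 9.42 CPM. The ratios of Ifitm2 and Ifitm3 between the libraries, 9.09 and 3.78, were the highest of any cluster although the levels were the lowest. Cluster 4, led by the receptor genes Klra7, Klra1 and Klra6, was next lowest for Ifitm1 and Ifitm2, with Ifitm1 at 126 CPM in NK-depleted cells and 55.1 CPM in control cells. Cluster 11, led by S1pr1, Gzmm and Ccl5, stood out for a low Ifitm3, with 73.5 CPM in NK-depleted cells and 33.8 CPM in control cells, beside an Ifitm1 of 514 CPM and 277 CPM. Clusters 13 and 14, with 41 and 40 NK-depleted cells and 55 and 47 control cells, were dendritic cell-like although they passed the gate. Ifitm3 stood in cluster 13 at 712 CPM in NK-depleted cells and 579 CPM in control cells, and in cluster 14 at 583 CPM and 391 CPM.

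**Figure D5:**
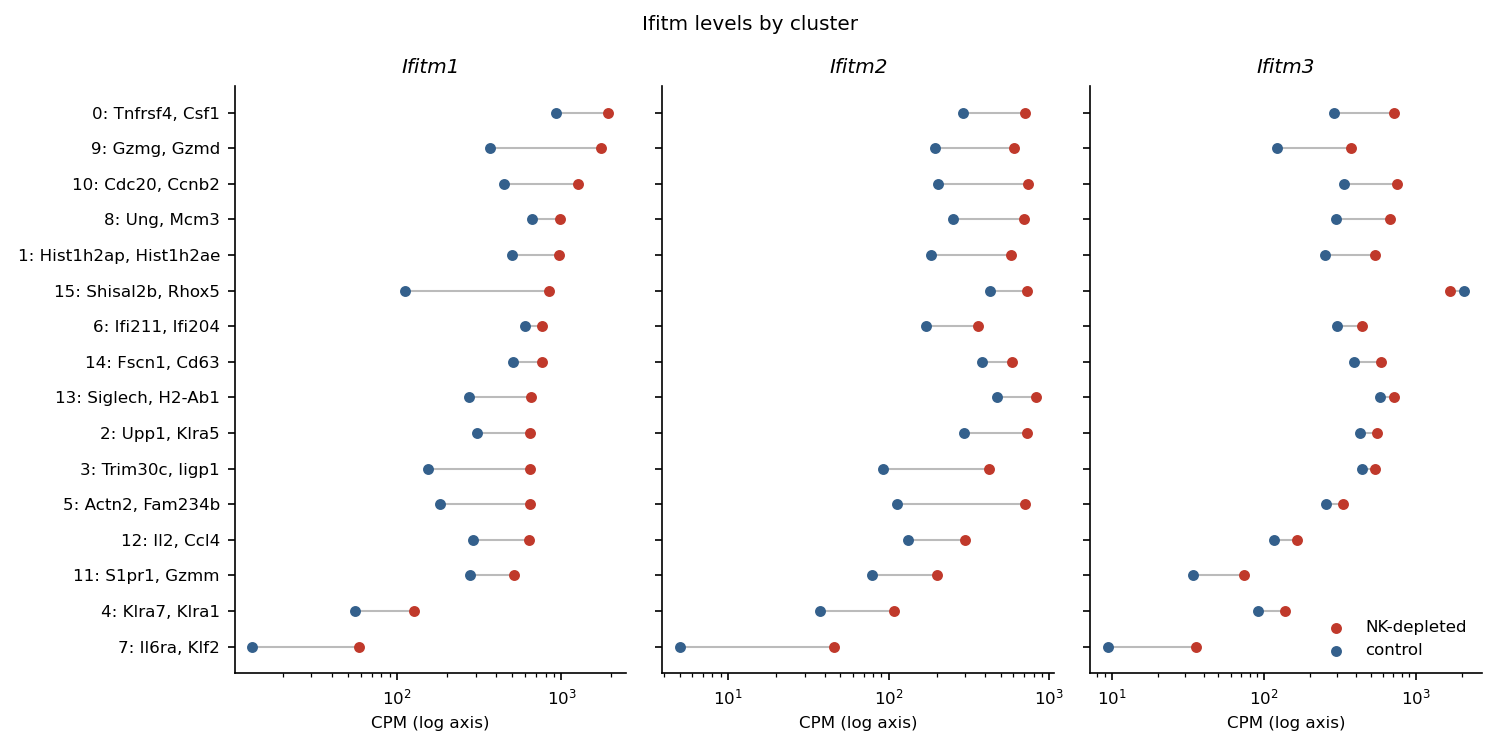
Level of Ifitm1, Ifitm2 and Ifitm3 (horizontal axes, CPM on a log axis) in 16 clusters (vertical axis, number and 2 leading genes, ordered by Ifitm1 in NK-depleted cells), for the NK-depleted (red) and control (blue) libraries joined by a line. Red lies to the right of blue in every cluster for Ifitm1 and Ifitm2 and in 15 of 16 for Ifitm3, where the exception, cluster 15, stands at 1657 CPM in NK-depleted cells and 2063 CPM in control cells.

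Markers of other cells were looked for in the gated cells. The 11 macrophage and monocyte genes summed to 27.5 CPM in NK-depleted cells and 37.99 CPM in control cells, with 10 of 11 under 10 CPM in both libraries and Cd68 highest at 11.4 CPM and 13.6 CPM. The 9 dendritic cell genes summed to 173 CPM in NK-depleted cells and 268 CPM in control cells, led by Cd74 at 68.1 CPM and 98.1 CPM. The 5 NK cell genes summed to 155 CPM in NK-depleted cells and 128 CPM in control cells, while Ncr1 had 3 UMIs in NK-depleted cells and 18 UMIs in control cells. The 6 gamma delta T cell genes summed to 32.9 CPM in NK-depleted cells and 18.9 CPM in control cells, with a UMI of any of them in 16.5% and 10.9% of cells, and 5 of 6 were under 10 CPM in both libraries. The 5 fibroblast genes summed to 3.40 CPM in NK-depleted cells and 0.620 CPM in control cells. The sums were thus lower in the NK-depleted library for macrophages and dendritic cells, and higher for NK cell genes, which some CD8 T cells also express, for gamma delta T cell genes and for fibroblast genes. The part of these last 3 lists in the Ifitm difference was not tested. In the cells without any UMI of macrophage, monocyte, neutrophil, dendritic or B cell markers, 3668 NK-depleted and 2778 control cells, the log2 ratios were 0.87 for Ifitm1, 1.54 for Ifitm2 and 0.90 for Ifitm3. The median mitochondrial share was 2.80% in NK-depleted cells and 2.27% in control cells, and 391 barcodes occurred in both libraries, of which 26 were gated in both. Without all shared barcodes the log2 ratio of Ifitm3 was 0.89.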

How the data were processed

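The authors deposited unnormalized UMI counts for each barcode. Per the file headers, Cell Ranger 6.1.2 made them. The mm10 build and Seurat 4.0.6 are named in the submitters' processing notes. Libraries used the 10x Genomics 5′ chemistry, per the labels' protocols. Counts of the gated cells were summed per library and divided by their total to give CPM. Ratios carry exact conditional binomial intervals, levels Poisson intervals and shares Clopper-Pearson intervals, all at 95%, which cover counting error only. Each group has 1 library, so there was no test and no p-value. The calculation was tested on simulated data.

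For values per cell, cells were thinned to 5500 UMIs. Clusters used 2000 variable genes (no Ifitm, receptor segment, mitochondrial, ribosomal protein or sex-linked genes), 30 principal components, 15 neighbours and Leiden at a resolution of 1 (scanpy 1.11.5, leidenalg 0.10.2). A cluster was named "-like" from at least 3 raised markers of a fixed list, unless its leading genes went against the name. Scrublet at an expected rate of 0.08 called 0 NK-depleted and 725 control doublets. It cannot be taken to have worked in the NK-depleted library, so doublets were kept in the main values. TMM factors came from edgeR 4.0.16.

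The members and gene lists were chosen with earlier results of these data known. Named genes were the 3 members, the 5 genes of the rule, per member the 5 highest and 3 lowest genes by mean Pearson coefficient, up to 4 genes per list with the largest log2 ratio, and the chromosome neighbours. A gene that this rule named is not reported here. Ly6e, Gzmk and the neighbours Sirt3 and Sigirr were named after their values were seen, as the ends of their lists. Promoters came from RefSeq (GRCm38.p6) and positions from GENCODE M21. All counted symbols but Mx1 were found in the files.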

Additional observations from a re-analysis of the deposited data

Results flagged for a closer look

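Of 3 classes of barcodes outside the gate, 2 gave a signal in the same direction for Ifitm1 and Ifitm2, and 1 of these for Ifitm3. In barcodes with under 500 genes, 900 in the NK-depleted and 494 in the control library, Ifitm1 stood at 645 CPM and 255 CPM, a ratio of 2.53, and Ifitm2 at 563 CPM and 323 CPM, a ratio of 1.74. Ifitm3 stood there at 625 CPM in the NK-depleted and 660 CPM in the control library. These barcodes had a median of 644.5 UMIs in the NK-depleted and 624 UMIs in the control library, and their Lyz2 level was 363 CPM and 750 CPM.

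In barcodes with at least 500 genes and a mitochondrial share of 10% or more, 858 in the NK-depleted and 209 in the control library, the ratio of NK-depleted over control was 3.21 for Ifitm1 (501 CPM and 156 CPM), 5.003 for Ifitm2 (358 CPM and 71.6 CPM) and 1.69 for Ifitm3 (232 CPM and 137 CPM). In barcodes that passed both filters but had no Cd3 or no Cd8 UMI, 189 in the NK-depleted and 262 in the control library, Ifitm3 was lower in the NK-depleted library, at 935 CPM (855 to 1020) against 1100 CPM (1029 to 1173). Ifitm1 stood there at 405 CPM in the NK-depleted and 352 CPM in the control library, and Ifitm2 at 585 CPM and 514 CPM, with overlapping intervals for each of these genes. Cd74 in this class was at 3418 CPM in the NK-depleted and 2474 CPM in the control library.

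Cluster 15 was the cluster in which Ifitm3 went against the others, with a ratio of NK-depleted over control of 0.803, and this difference from the other clusters was not tested. It held 28 NK-depleted and 57 control cells with a median of 1008 and 1047 UMIs, was led by Shisal2b, Rhox5, Apoe, Ccl2 and Cald1, and had all 11 macrophage and monocyte markers raised. It was left unnamed because its leading genes do not point to a single cell type.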

How the results depend on the processing

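All 57 alternative log2 ratios of the 3 genes, 19 per gene, stayed above 0: 23 lay within the counting interval of the reported value and 34 moved beyond it. The range was 0.87 to 2.16 for Ifitm1, 1.46 to 3.18 for Ifitm2 and 0.63 to 1.92 for Ifitm3. In the order Ifitm1, Ifitm2 and Ifitm3, the log2 ratio was 1.06, 1.70 and 0.94 with TMM factors, 1.07, 1.71 and 0.96 with median-of-ratios factors, 1.01, 1.66 and 0.90 without mitochondrial and ribosomal protein genes, and 1.05, 1.67 and 0.78 after thinning. It was 0.87, 1.54 and 0.90 in cells without macrophage, monocyte, neutrophil, dendritic or B cell markers. Weighted to 1 mix of states it was 1.11, 1.70 and 0.82. Within the naive-like cluster, a setting added after seeing the data, it was 2.16, 3.18 and 1.92. Equal weight per cell gave 1.09 for Ifitm1 and 0.67 for Ifitm3. Leaving out the 8% of cells with the highest Scrublet scores gave 0.94 for Ifitm1 and 1.57 for Ifitm2. Cells without Mki67 or Top2a gave 1.46 for Ifitm2 and 0.63 for Ifitm3, and leaving out the dendritic cell- and macrophage-marked clusters, also added later, gave 1.68 and 0.92. Without the clusters dominated by 1 library, Ifitm2 was at 1.49. Ifitm3 was at 0.83 without the gate, 0.90 at a mitochondrial share under 5%, 0.82 without the 8% deepest cells and 0.89 without shared barcodes. The cause of these shifts was not tested.

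The share of cells with a UMI differed by 22.5, 31.6 and 16.1 points for Ifitm1, Ifitm2 and Ifitm3. The difference was 18.7, 27.5 and 13.6 points at 3000 UMIs per cell, 13.4, 25.2 and 13.0 points when at least 2 UMIs were asked for, and 32.3 and 33.5 points for Ifitm1 and Ifitm2 without thinning. Genes at least 1.5-fold higher numbered 36 with TMM and 41 with median-of-ratios factors, against 19 by CPM, and lower ones 45 and 44, against 74. Both scalings, added later, left 2 of 9 interferon receptor and signalling genes lower by 1.25-fold or more, against 5, and 1 type I gene higher, against 0. Of 48 alternative correlations with Ifit3 and Gzmb, 38 moved little and 10 came closer to 0, mostly as means within clusters. Of 36 alternative log2 ratios of cells with over cells without Pdcd1, Tcf7 or Mki67, 28 moved beyond counting error and none changed sign. At the lower and higher cluster resolutions, Ifitm1 and Ifitm2 were higher in NK-depleted cells in all clusters compared, and Ifitm3 in all but 1. No paired analysis was possible because each group has a single library. Depth limits cluster 15, with medians of 1008 and 1047 UMIs in NK-depleted and control cells, and the control cells of cluster 9, with 3599.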
